A study of Mus musculus with 9 samples.

Results

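The regions described here were 10-Mb windows laid from position 1 of every mouse autosome except chromosome 16, which carries Cd47. A window was kept when it held 10 or more genes with a mean CPM (count scaled to the library total) of at least 5 over the 9 libraries, with each gene placed by its deposited start coordinate. Of 245 windows with any such gene, 221 were kept, and they held 9146 of the 9303 genes above that level on these 18 autosomes. Kept windows held 10 to 151 genes, with a median of 34. The value of a window was the median, over its genes, of the log2 ratio of mean CPM between 2 lines.

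RNA from the Lewis lung carcinoma (LLC) line, a transplantable mouse lung tumour line grown in culture, was sequenced as polyA-selected paired-end libraries. The groups were LLC WT, the clonal line CD47 KO E3 and the clonal line CD47 KO E5, each with 3 libraries from untreated cultures. E3 and E5 each descend from 1 cell that received Cas9 ribonucleoprotein with a guide to Cd47, and WT is 1 line that did not, so loss of Cd47 and everything else that sets 1 clone apart from the WT line cannot be told apart. Total counts were 49621282, 47756318 and 47574047 in WT replicates 1 to 3, 48672040, 46747086 and 44257404 in E3, and 47436854, 47378308 and 55095219 in E5.

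Tumour cell lines in culture carry abnormal and drifting karyotypes, and a clone grown from 1 cell fixes the karyotype of that cell. When a stretch of chromosome is gained or lost, transcript levels of most of its expressed genes move in the same direction, so that neighbouring genes with unrelated functions shift together by a modest amount. Transcript levels of neighbouring genes can also move together through shared chromatin, and only RNA was measured in these libraries, so a change in copy number and a change in expression could not be told apart.

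The guide that the clones received is shown first, because stretches of genome that resemble it are positions that a nuclease loaded with it could also meet. It is printed from its 5′ end, and each near match on the searched autosomes is printed on the same strand as the guide, with capitals at the bases that differ from it. The search of build GRCm39 allowed up to 3 mismatches and required an NGG PAM directly after the match. The sites given leave out chromosome 16, and with it the target of the guide in Cd47. On the searched autosomes no site had 0, 1 or 2 mismatches, and 8 sites had 3.
guide: tatagagctgaaaaaccgca
site 1: tatGgagcAgaaaaaccAca
site 2: taCagagctAaaaaacAgca
site 3: tatagagctAaaCaacTgca
site 4: tatagagTtgaGaaacAgca
site 5: tataTagctTaaaaacTgca
site 6: AatagagctgGaaaaccTca
site 7: tatagagcAgaTaaaccgAa
site 8: tataTaTctgaaaaacAgca

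Site 1 lay between genes at chr1:76299719-76299738 on the + strand with the PAM TGG, and site 2 in an intron of Frmd5 at chr2:121574052-121574071 on the - strand with TGG. Site 3 lay between genes at chr4:70835089-70835108 on the - strand with TGG, and site 4 in an intron of Phyhipl at chr10:70467658-70467677 on the + strand with AGG. Site 5 lay between genes at chr11:20737148-20737167 on the - strand with AGG, and site 6 between genes at chr12:50267610-50267629 on the + strand with GGG. The only one in coding sequence was site 7, in Otub2 at chr12:103370628-103370647 on the - strand with GGG. Site 8 lay in an intron of Gm63122 at chr14:80761999-80762018 on the - strand with TGG. The windows of sites 3 and 8 held too few genes to be kept. In the other 6, the value against WT ran from -0.27 at site 4 to 0.19 at site 5 in E3, and from -0.10 at site 4 to 0.31 at site 6 in E5. With all libraries the window of site 6 was called shifted, in E5, a call lost in 4 of the 9 fits that left out 1 library. The window of site 4 was not called in E3 with all libraries, and it was called there without E3 replicate 3 (-0.30). Whether any of these sites was cut was not tested.

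Cd47, the cell-surface ligand of the myeloid receptor Sirpa and the target of the guide, is gene ENSMUSG00000055447.20 at chr16:49620896-49735373. It was measured at 188, 178 and 181 CPM in the WT libraries, at 48.7, 37.2 and 51.0 CPM in E3, and at 15.2, 18.1 and 17.7 CPM in E5. The 3 lines did not overlap, with log2 fold changes against WT of -2.03 (SE 0.13, adjusted p 4.9e-06) in E3 and -3.39 (SE 0.14, adjusted p 1.07e-07) in E5. The mesenchymal marker vimentin (Vim) lay at 4112 to 4200 CPM in WT, 4908 to 6508 CPM in E3 and 5962 to 6707 CPM in E5. It was called higher in both clones by edgeR (0.40, adjusted p 0.0301, and 0.66, adjusted p 0.00335). Cd44 lay at 315 to 494 CPM in all 9 libraries. The simple epithelial keratin gene Krt8 lay at 184 to 199 CPM in WT, 32.7 to 46.6 CPM in E3 and 343 to 372 CPM in E5, and its partner Krt18 at 258 to 277, 96.2 to 157 and 506 to 572 CPM. Markers of T cells (Cd3e) and of lung epithelium (Sftpc, Scgb1a1) had 0 counts in every library, and those of other leukocytes and endothelium (Ptprc, Adgre1, Pecam1, Cdh5) stayed at or under 0.113 CPM.

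E3 replicate 3 stood apart from every other library before any comparison was made. Each library was given a score per window, the median over its genes of log2(CPM + 0.5) minus the gene's mean over the 9 libraries, so that 0 is the average of the 9. A difference of scores is on the log2 scale, but it need not equal the value of the window, which is taken from ratios of mean CPM. Over the 221 windows the scores of E3 replicates 1 and 2 correlated at 0.858, whereas replicate 3 correlated with them at 0.505 and 0.387. Pairs within WT ranged from 0.870 to 0.936 and pairs within E5 from 0.898 to 0.941. These values describe the windows and carry no test, since all windows share the same libraries.

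The standard deviation over windows of the difference between E3 replicate 3 and the mean of the other E3 libraries was 0.157, against 0.050 for E3 replicate 1 minus replicate 2 and 0.038 for the same difference in WT and in E5. Replicate 3 was the lowest E3 library in 145 windows and the highest in 60, it differed from the mean of the other E3 libraries by more than 0.2 in 58, and the differences ran from -0.52 to 0.28. They followed base composition and gene density: across the 221 windows the difference had a Pearson r of 0.58 and a Spearman rho of 0.55 with the median GC content of the windows' transcripts, and 0.55 (on log10) and 0.54 with the number of genes per window. The windows called in E3 are therefore given with and without this library.

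**Figure D1:**
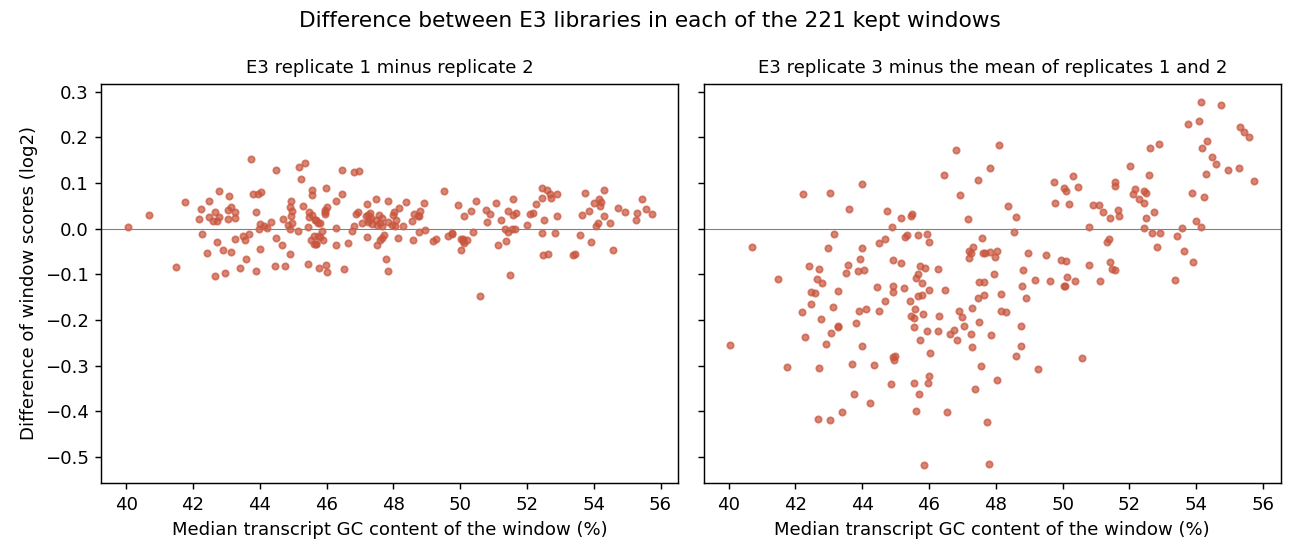
Difference of window scores (log2) against the median GC content (%) of the transcripts in each of the 221 windows, for E3 replicate 3 minus the mean of replicates 1 and 2 and for replicate 1 minus replicate 2. Each point is 1 window, and the standard deviation over windows was 0.157 for replicate 3 against 0.050 for the other pair.

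Most windows were close to WT in both clones. In E3 the window values had a median of -0.01 and a standard deviation of 0.15, with extremes of -0.45 and 0.41. In E5 the median was -0.02 and the standard deviation 0.17, with extremes of -0.54 and 0.42. Even the most extreme window thus moved its median gene by less than the halving or doubling of transcript level that a log2 ratio of 1 stands for.

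A window was called shifted when its scores differed between lines at an adjusted p under 0.05 (limma across all 221 windows) and its value was at least 0.3 in size. At the adjusted p alone, 85 windows differed between E3 and WT (46 lower, 39 higher, and 119 in all without E3 replicate 3) and 112 between E5 and WT (70 lower, 42 higher, and 173 in all without E3 replicate 3). With the size threshold, 12 windows were called in E3, 8 lower (3.62% of the 221) and 4 higher (1.81%). That balance was 15 lower and 1 higher with TMM, and 14 and 1 with DESeq2 size factors. In E5, 16 were called, 11 lower (4.98%) and 5 higher (2.26%), a balance that was 5 lower and 9 higher with DESeq2 size factors or with centring on the median of all genes. Every window at or over 0.3 in size also passed the adjusted p. The size threshold was applied to the value, while limma tested the difference of mean scores. That difference was under 0.3 in size in some called windows. Among them were chromosome 3 at 70-80 Mb, chromosome 11 at 30-40 Mb and chromosome 17 at 70-80 Mb in E3, and chromosome 6 at 100-110 Mb in E5. The size threshold falls inside a continuous range: the largest values just under it were 0.289 in E3 and 0.295 in E5, and the smallest at it were 0.30 and 0.307. The p-values measure the spread between libraries of a line, which come from 1 clone or 1 WT line each, and not the spread between independent clones. Called windows lay on chromosomes 3, 6, 8, 10, 11, 15, 17 and 19 in E3 and on chromosomes 4, 5, 6, 12 and 13 in E5. Chromosome 6 was the only one with a called window in both, and 20-30 Mb on it was the only window called in both with all libraries, lower in each. Without E3 replicate 3, 70-80 Mb of chromosome 6 was called lower in both as well. The comparisons share the WT libraries, so this is a count and not independent support.

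**Figure D2:**
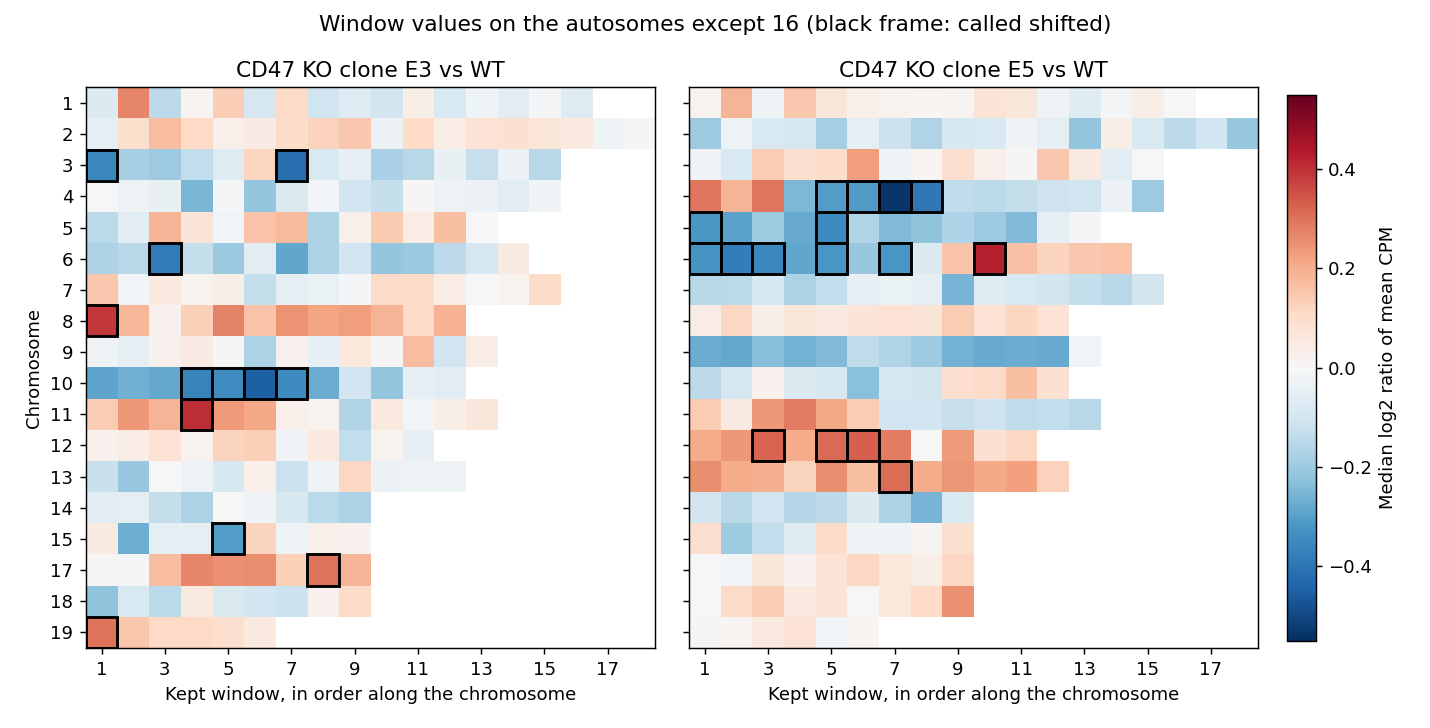
Value of each kept window (colour, log2 ratio of mean CPM) for E3 against WT and E5 against WT, with chromosomes as lines and windows in order along each from left to right. Black frames mark the 12 windows called shifted in E3 and the 16 in E5, which sit on different chromosomes except for chromosome 6.

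The strongest regional change in E3 was on chromosome 10, where 4 neighbouring windows from 30 to 70 Mb were all lower than in WT. Of the 112 genes in them, 93 (83.0%) were lower, and the median log2 ratio was -0.38. The genes include Ddx21, a nucleolar RNA helicase of ribosome synthesis, Gja1, the gene of a gap junction connexin, Cd164, a cell-surface sialomucin, and Unc5b, a netrin receptor. The whole of chromosome 10 leaned the same way, with all 12 of its kept windows lower in E3 and a chromosome median of -0.23, or -0.21 without E3 replicate 3.

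The score of the 30-70 Mb run was 0.16, 0.18 and 0.16 in the WT libraries, -0.15, -0.15 and -0.33 in E3, and 0.08, 0.05 and 0.07 in E5. All E3 libraries were under all WT and E5 libraries, with replicate 3 the lowest. By window the value in E3 was -0.37 at 30-40 Mb (adjusted p 0.000261), -0.34 at 40-50 Mb (5.14e-05), -0.45 at 50-60 Mb (0.00102) and -0.35 at 60-70 Mb (0.00286). Without E3 replicate 3 the values were -0.42, -0.29, -0.38 and -0.21, so that the windows at 40-50 and 60-70 Mb no longer reached the size threshold while the other 2 did. In E5 the same windows had values of -0.08, -0.09, -0.23 and -0.10, and none was called. The direct test of E5 against E3 gave 0.31, 0.25, 0.27 and 0.27, with adjusted p from 5.91e-05 to 0.00691. E3 was thus lower than E5 in all 4 windows, and the difference reached 0.3 at 30-40 Mb only, where the call was lost without E3 replicate 1 (0.24), E3 replicate 2 (0.27) or E5 replicate 3 (0.20).

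At the level of single genes, tested by edgeR over 14593 genes, 59 of the 112 genes in the run were called lower in E3 and 6 higher, against 14.7% and 15.7% of all genes tested. The 5 most abundant were named in every run. In this one Ddx21 lay at 570, 633 and 646 CPM in WT, 285, 369 and 215 CPM in E3 and 507, 502 and 496 CPM in E5. E3 was below the other lines without overlap, with a log2 fold change against WT of -1.12 (SE 0.17, adjusted p 0.000862) that was -0.95 without replicate 3. Gja1 lay at 475, 448 and 474 CPM in WT and at 358, 288 and 271 CPM in E3, a log2 fold change of -0.64 (SE 0.11, adjusted p 0.00195). Cd164 went from 500, 470 and 479 CPM to 381, 309 and 319 CPM (-0.56, adjusted p 0.00232), and its call in E3 and those of Ddx21 and Gja1 held whichever library was left out. It was also called lower in E5, at 350, 355 and 381 CPM (-0.39, adjusted p 0.0218), a call lost without any 1 WT library or E5 replicate 1 or 2, and E5 against E3 was 0.17 (adjusted p 0.221). Unc5b was also called (-0.34, adjusted p 0.0362) but lost the call when any 1 of 6 libraries was left out, among them WT replicates 2 and 3 and E3 replicate 1, with values from -0.41 to -0.26 over the alternatives. Psap, the precursor of the lysosomal saposins, was the most abundant gene of the run and was not called with all libraries, at 582, 558 and 580 CPM in WT against 538, 449 and 595 CPM in E3 (-0.15, adjusted p 0.31). Without E3 replicate 3 it was called lower (-0.25). In E5, Psap lay at 436, 469 and 458 CPM (-0.30 against WT) and Gja1 at 359, 383 and 382 CPM (-0.28). Neither was called in E5 with all libraries, and both were called lower there without E3 replicate 3.

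On chromosome 6, the window at 20-30 Mb was lower in both clones. Its genes include Snd1, an RNA-binding nuclease-domain protein, Calu, a calcium-binding protein of the secretory pathway, Rbm28, a nucleolar RNA-binding protein, and Tnpo3, an importin that carries splicing factors into the nucleus. The window score was 0.25, 0.20 and 0.27 in WT, -0.08, -0.11 and -0.22 in E3, and -0.07 in each E5 library. Both clones were below WT without overlap, at -0.38 in E3 (adjusted p 0.000231, -0.37 without replicate 3) and -0.35 in E5 (adjusted p 0.000175), and E5 against E3 was 0.11 (adjusted p 0.141). In each clone 18 of the 21 genes were lower than in WT.

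The genes behind the window's value were not alike in the clones. Rbm28 lay at 178, 185 and 189 CPM in WT, 119, 132 and 111 CPM in E3 and 140, 133 and 123 CPM in E5, and was called lower in both (-0.64 and -0.45), in E5 only while WT replicates 2 and 3 were both kept. Snd1 lay at 712, 662 and 666 CPM in WT and at 677, 574 and 693 CPM in E3, which overlapped, while E5 lay below both at 436, 475 and 463 CPM. Its log2 fold change was -0.10 (adjusted p 0.464) in E3 and -0.54 (SE 0.10, adjusted p 0.00335) in E5, and -0.43 (adjusted p 0.00732) between the clones. Tnpo3 was called lower in E3 (-0.56, adjusted p 0.0129), a call that was lost without WT replicate 3. In E5 it was called only without E3 replicate 3 or in a fit of E5 and WT alone (-0.21 without that library), and its difference between the clones missed the threshold (0.34, adjusted p 0.0871). Flnc, which encodes an actin-crosslinking filamin, was at 245 CPM in E3 replicate 3 against 506 and 573 CPM in the other E3 libraries, and was not called in either clone with all libraries. Without that library its value in E3 went from -0.50 to -0.21, and it was called lower in E5 (-0.32).

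Elsewhere in E3, single windows were called. At 0-10 Mb of chromosome 8 the value was 0.39 (adjusted p 0.00078, 0.35 without replicate 3), and the call held whichever library was left out. Of its 21 genes 15 were higher and 11 (52.4%) were called higher, against 15.7% of all genes tested. The 5 most abundant genes there, among them the insulin receptor gene Insr and the mRNA-binding protein gene Elavl1, were not called, and 1 of the 5 was higher than in WT. With genes of a mean CPM of at least 20 alone the window's value was 0.15, which ended the call. All 12 windows of chromosome 8 were higher in E3 than in WT, with a chromosome median of 0.19.

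At 70-80 Mb of chromosome 3, the value was -0.41 over 10 genes, the fewest a kept window could hold, and -0.19 without E3 replicate 3, which ended the call. Of the 10 genes 7 were lower, with 2 called lower and 2 higher (20% each, against 14.7% and 15.7% of all genes tested). Ppid, a cyclophilin-type prolyl isomerase gene, was the 1 named gene there called lower, from 149, 157 and 152 CPM in WT to 98.6, 108 and 117 CPM in E3 (-0.54, SE 0.10, adjusted p 0.00309). Golim4, the gene of a Golgi membrane protein, lay at 42.9 CPM in E3 replicate 3 against 74.8 and 62.4 CPM in the other E3 libraries, and Rapgef2, a GTPase exchange factor gene, lay at 20.8 CPM there against 41.9 CPM in replicate 1. Both were below WT without a call (-0.42 and -0.62), and both were called without replicate 3 at smaller values (-0.23 and -0.33). On the same chromosome, 10-20 Mb had a value of -0.35 over 14 genes, or -0.28 without replicate 3, also under the size threshold.

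The window at 30-40 Mb of chromosome 11 shows how far 1 library could carry a result. Its score was -0.18, -0.19 and -0.17 in WT and 0.16 and 0.13 in E3 replicates 1 and 2, but -0.15 in replicate 3. In E5 it was 0.11, 0.08 and 0.05, above WT without overlap, at a value of 0.29 that was under the size threshold. The value in E3 was 0.41 (adjusted p 0.0306) and 0.42 without replicate 3, and 0.28 and 0.23 without replicates 1 and 2, which ended the call. It was also lost without any 1 of the WT libraries, where the value stayed between 0.37 and 0.43 and the adjusted p passed 0.05. Sptbn1, a spectrin gene, lay at 245, 249 and 264 CPM in WT, at 413, 458 and 168 CPM in E3, and at 425, 412 and 417 CPM in E5. Psme4, a proteasome activator gene, had the same pattern at 146, 147 and 150 CPM in WT, 260, 283 and 143 CPM in E3 and 250, 222 and 212 CPM in E5. Neither was called in E3 with all libraries (0.42 and 0.60), and both were without replicate 3 (0.75 and 0.85). Rars1, the arginyl-tRNA synthetase gene, was called lower in E3 inside this higher window (-0.38, adjusted p 0.0161), and that call was lost without WT replicate 2 or 3.

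Myc, the proto-oncogene, lay in a called window of E3, 60-70 Mb of chromosome 15. It was measured at 544, 635 and 643 CPM in WT, 237, 184 and 246 CPM in E3, and 644, 702 and 659 CPM in E5. E3 was at well under the level of the other lines, and the lowest E5 library was just above the highest WT library, with log2 fold changes against WT of -1.48 (SE 0.13, adjusted p 3.01e-05) in E3 and 0.17 (adjusted p 0.383) in E5. Over the alternatives tried the change in E3 ran from -1.57 to -1.38. The window itself was weaker than its best known gene, at a value of -0.31 over 10 genes. Of these, 4 were called lower and 2 higher (40% and 20%, against 14.7% and 15.7% of all genes tested). The value was -0.21 without E3 replicate 3, whose score was -0.53 against -0.05 and 0.02. The call was lost without E3 replicate 3, without any 1 WT library and without any 1 E5 library, with the value between -0.31 and -0.21 in those fits.

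The 2 remaining windows called in E3 were higher than WT and sat at the size threshold. At 0-10 Mb of chromosome 19, the window with the most genes, 122 of 151 genes were higher and the value was 0.30. By edgeR 55 (36.4%) were called higher and 9 (5.96%) lower, against 15.7% and 14.7% of all genes tested. E3 replicate 3 scored 0.39 there against 0.14 and 0.10, the value was 0.20 without it, and it was 0.297 without WT replicate 2, both under the threshold. At 70-80 Mb of chromosome 17, 24 of 34 genes were higher at a value of 0.30, which ran from 0.23 to 0.298 when any 1 WT or E3 library was left out. Both windows lost their calls with TMM, DESeq2 size factors and centring, and the chromosome 11 window with TMM and DESeq2 size factors. In all, 5 of the 12 windows called in E3 were called without replicate 3, when 8 were called, and 4 were called whichever library was left out: chromosome 10 at 30-40 and 50-60 Mb, chromosome 6 at 20-30 Mb and chromosome 8 at 0-10 Mb. The 3 windows called without replicate 3 but not with all libraries were on chromosome 6 at 70-80 Mb (-0.35), chromosome 8 at 40-50 Mb (0.30) and chromosome 10 at 70-80 Mb (-0.30).

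In E5 the lowest window of either clone was at 60-70 Mb of chromosome 4, where all 14 genes were lower than in WT. Of these, 10 were called lower, against 11.7% of all genes tested. The window belonged to a run from 40 to 70 Mb with 108 genes, of which 90 (83.3%) were lower, and a separate window followed at 80-90 Mb with 18 of 19 genes lower. Genes in the latter include Plin2, which coats lipid droplets, Psip1, a chromatin-bound transcriptional coactivator, and Mtap, an enzyme of methionine salvage. The tumour suppressors Cdkn2a and Cdkn2b, which sit beside Mtap, had 0 counts in all 9 libraries, so these libraries hold no transcript level for them to compare.

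The score of the 60-70 Mb window was 0.26, 0.21 and 0.16 in WT, 0.08, 0.06 and 0.09 in E3, and -0.33, -0.32 and -0.28 in E5. The lines did not overlap, and the value in E5 was -0.54 (adjusted p 8.65e-06) against -0.08 in E3 and -0.49 between the clones (adjusted p 3.9e-05). At 80-90 Mb the score was 0.18, 0.18 and 0.14 in WT, 0.22, 0.14 and 0.11 in E3 and -0.19, -0.28 and -0.22 in E5. WT and E3 overlapped there and E5 was below both, with a value of -0.39 against WT (adjusted p 8.94e-05) and -0.40 against E3 (adjusted p 5.91e-05). Both windows were called whichever library was left out, with values from -0.57 to -0.51 and from -0.43 to -0.36.

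The rest of the run was nearer the threshold, at -0.31 in both 40-50 Mb (adjusted p 0.000154) and 50-60 Mb (adjusted p 0.0296). Both calls were lost with TMM, with DESeq2 size factors and with centring. The first was also lost without WT replicate 1 (-0.29) or E5 replicate 1 (-0.295). The second was also lost without WT replicate 2 or 3 or any 1 E5 library, at values from -0.35 to -0.29, and its scores include -0.36 in E3 replicate 3 against 0.15 in each of the other E3 libraries, a spread that enters the error of every comparison. Over the whole run the score was 0.15, 0.13 and 0.11 in WT, 0.07, 0.09 and 0.09 in E3 and -0.19, -0.21 and -0.21 in E5. The same direction appeared in genes that the windows did not use: 27 genes of the run with a mean CPM from 0.5 to 5 had a median log2 ratio of -0.61 in E5. Such genes did not follow everywhere: 6 of them at 80-90 Mb of chromosome 4 had a median of -0.08, and 10 in the run from 50 to 70 Mb of chromosome 12, where the genes used were higher, of 0.04.

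Among single genes of the run, 39 were called lower in E5 and 1 higher, against 11.7% and 8.96% of all genes tested. The most abundant did not all follow it. Anp32b, a histone chaperone gene, lay at 767, 800 and 832 CPM in WT and 531, 562 and 546 CPM in E5 (-0.52, SE 0.15, adjusted p 0.0301), but lost the call when any 1 WT or E5 library was left out. Rad23b, a receptor for ubiquitinated proteins and damaged DNA, was called lower in both clones (-0.46 in E3, -0.44 in E5), and in E5 lost the call without WT replicate 2 or 3. Vcp, Tln1 and Txn1 were not called, with log2 fold changes of 0.11, 0.13 and 0.06 in E5.

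At 80-90 Mb, 3 of the 5 named genes were called lower. Plin2 lay at 274, 226 and 196 CPM in WT, 210, 132 and 234 CPM in E3, and 74.0, 92.3 and 122 CPM in E5. The E5 libraries were below every other library, with a log2 fold change of -1.24 (SE 0.23, adjusted p 0.00385) against WT and -0.93 (adjusted p 0.0114) against E3. Psip1 lay at 315, 310 and 316 CPM in WT, 314, 312 and 336 CPM in E3 and 246, 237 and 232 CPM in E5 (-0.37, SE 0.08, adjusted p 0.0106). Mtap fell from 182, 191 and 189 CPM in WT to 147, 129 and 130 CPM in E5 (-0.44, adjusted p 0.0172). Without WT replicate 2, WT replicate 3 or E5 replicate 2, Psip1 and Mtap lost their calls, and Mtap also without E5 replicate 3. Rps6, a ribosomal protein gene, and Klhl9, a ubiquitin ligase adaptor gene, were not called in E5 with all libraries (-0.36 and -0.02), and Rps6 was without E3 replicate 3 at nearly the same value.

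The proximal part of chromosome 6 was lower in E5 over 5 called windows: -0.33 at 0-10 Mb, -0.38 at 10-20 Mb, -0.35 at 20-30 Mb, -0.32 at 40-50 Mb and -0.32 at 70-80 Mb. Each of the 5 was called whichever library was left out, but those at 0-10, 40-50 and 70-80 Mb were not called with DESeq2 size factors or with centring. In the run from 0 to 30 Mb, 50 of 56 genes (89.3%) were lower. By edgeR 17 (30.4%) were called lower and 1 (1.79%) higher, against 11.7% and 8.96% of all genes tested. The run held Asns, the asparagine synthetase gene, Cav1, the gene of the main caveolar coat protein, and the receptor tyrosine kinase gene Met.

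The score of that run was 0.26, 0.18 and 0.19 in WT, -0.01, -0.06 and -0.09 in E3, and -0.15, -0.17 and -0.12 in E5. E5 was lowest and E3 lay between, with no overlap among the 3 lines. Against E3, the E5 values at 0-10 and 10-20 Mb were -0.22 (adjusted p 0.00534) and -0.20 (adjusted p 0.00476), under the size threshold. At 40-50 and 70-80 Mb, E3 was also lower than WT, by values of -0.21 and -0.28 that were not called with all libraries (the second was without E3 replicate 3, at -0.35), and E5 against E3 was 0.04 (adjusted p 0.72) and -0.06 (adjusted p 0.328).

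Asns lay at 637, 694 and 695 CPM in WT, at 273, 245 and 287 CPM in E3, and at 404, 516 and 566 CPM in E5. The 3 lines did not overlap, and E3 was the lowest, with log2 fold changes of -1.37 (SE 0.13, adjusted p 5.82e-05) in E3 and -0.42 (SE 0.13, adjusted p 0.0434) in E5, the second of which was lost without any of 6 single libraries, E5 replicates 1 and 2 and all WT replicates among them. Calu lay at 829, 827 and 865 CPM in WT, 834, 713 and 648 CPM in E3 and 599, 621 and 608 CPM in E5 (-0.43 in E5, adjusted p 0.0159). That call was lost without WT replicate 2 or 3 or any 1 E5 library. Cav1 lay at 424, 393 and 419 CPM in WT, 562, 467 and 480 CPM in E3 and 342, 339 and 338 CPM in E5, so that the clones sat on opposite sides of WT. Neither difference from WT was called with all libraries (0.25 and -0.25), both were without E3 replicate 3 (0.29 and -0.24) and with DESeq2, and E5 was below E3 by a log2 fold change of -0.50 (adjusted p 0.003). Met was not called in either clone (-0.44 in E3, or -0.13 without replicate 3, and -0.21 in E5) and lay at 41.0 CPM in E3 replicate 3 against 87.5 and 113 CPM in the other E3 libraries.

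Farther along chromosome 6 the direction in E5 was the opposite. At 100-110 Mb the value was 0.42 over 11 genes (adjusted p 0.0424), and the score was 0.24, 0.37 and 0.17 in E5 against 0.04, -0.04 and 0.01 in WT. Gxylt2, a xylosyltransferase gene of Notch glycosylation, lay at 176, 175 and 180 CPM in WT, 163, 160 and 118 CPM in E3 and 268, 301 and 325 CPM in E5. E5 was above both other lines without overlap, by 0.78 against WT (SE 0.13, adjusted p 0.00228) and 1.08 against E3 (adjusted p 0.000211). It was the only named gene of the window called higher in E5. Trnt1 in the same window, which adds the CCA end to transfer RNAs, went from 77.5, 78.5 and 75.3 CPM in WT to 42.4, 46.1 and 43.5 CPM in E3 (-0.84, adjusted p 9.42e-05) and was not called in E5 with all libraries (-0.25), though it was without E3 replicate 3 at the same size. The window's call in E5 was lost without E3 replicate 1 or 2, where the value stayed 0.42, and without E5 replicate 1 (0.44) or 2 (0.46). It was also lost with TMM (0.44) and with a minimum mean CPM of 1 or of 20 (0.27 at each).

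On chromosomes 12 and 13 the windows called in E5 were higher than WT. They were 20-30 Mb (0.32), 50-60 Mb (0.31) and 60-70 Mb (0.33) of chromosome 12 and 60-70 Mb of chromosome 13 (0.31). In the 60-70 Mb window of chromosome 12, all 23 genes were higher than in WT and 9 were called higher. In the run from 50 to 70 Mb, 53 of 58 genes (91.4%) were higher, 18 were called higher and 0 lower by edgeR at the adjusted p. The run contains Arf6, a GTPase of membrane traffic at the cell surface.

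The score of the run was -0.10, -0.14 and -0.15 in WT, 0.01, 0.00 and -0.04 in E3, and 0.22, 0.17 and 0.20 in E5. E5 was above E3 and E3 above WT in every library, and E5 against E3 was 0.18 at 50-60 Mb and 0.26 at 60-70 Mb (adjusted p 0.00414 and 6.98e-05). Arf6 lay at 247, 273 and 285 CPM in WT, 231, 238 and 223 CPM in E3 and 339, 353 and 340 CPM in E5 (0.39 against WT, SE 0.09, adjusted p 0.0129), and lost the call without WT replicate 1 or 2 or E5 replicate 2. The 60-70 Mb window of chromosome 12 was called whichever library was left out, whereas 50-60 Mb was lost without WT replicate 2 or 3 or E5 replicate 1 or 2 (0.28 to 0.298), 20-30 Mb without E5 replicate 3 (0.29), and the chromosome 13 window without E5 replicate 1 (0.299) or 3 (0.28). The chromosome 13 value was 0.19 with a minimum mean CPM of 20 and 0.298 as a trimmed mean, neither of them called.

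The last windows called in E5 were on chromosome 5, at 0-10 Mb (-0.32, 18 of 24 genes lower) and 50-60 Mb (-0.35, 11 of 12 genes lower). The first holds Cdk6, a kinase gene of the entry into S phase, which was not called (0.11, adjusted p 0.814). It was lost without E5 replicate 2 (-0.24) and the second without E5 replicate 1 (-0.28). All 16 windows called in E5 were also called without E3 replicate 3, and 8 of them whichever library was left out.

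**Figure D3:**
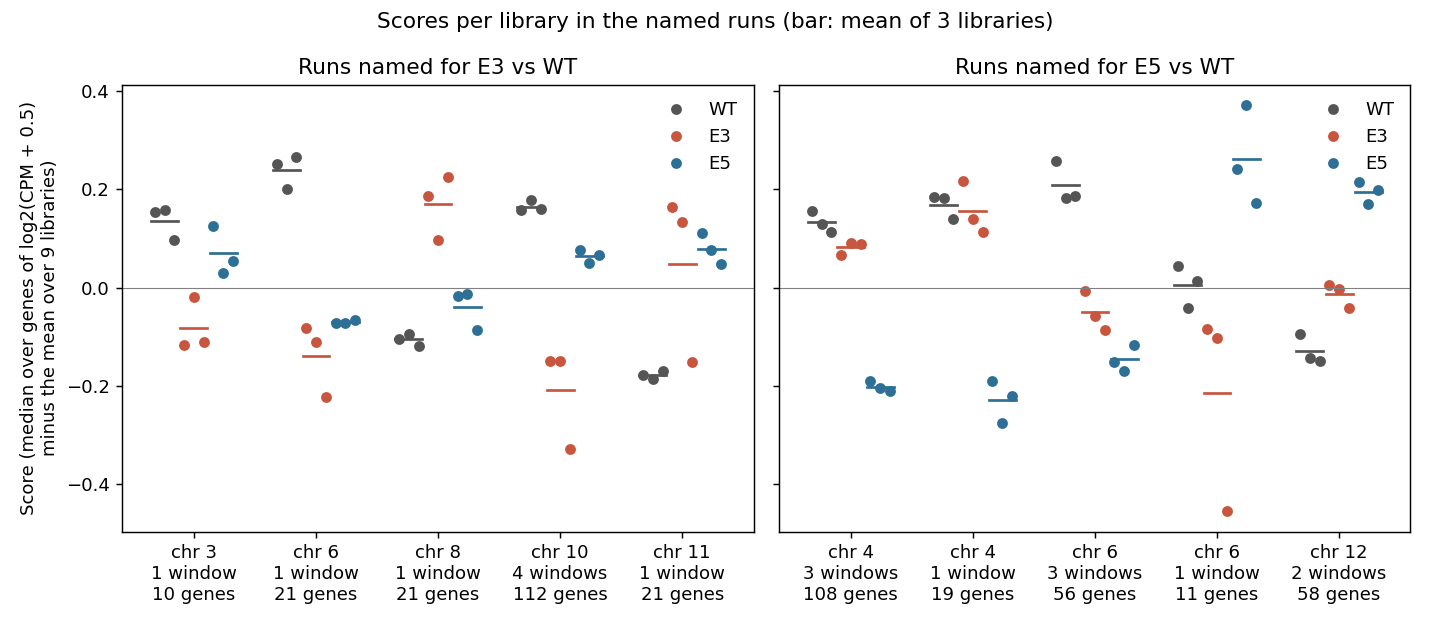
Scores of the 5 named runs of E3 (left) and of E5 (right) in each of the 9 libraries (points, log2), with a bar at the mean of the 3 libraries of a line. E3 replicate 3 falls away from the other E3 libraries in the chromosome 11 window, at -0.15 against 0.16 and 0.13, while the E5 libraries of the chromosome 4 run lie between -0.21 and -0.19.

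As groups, the genes of called windows moved mostly with their window, which is how the windows were chosen and is no result in itself. In the windows called lower in E3, 135 of 167 genes were lower and 48.5% were called lower, and in those called higher 177 of 227 genes were higher and 37.0% were called higher. In E5, 237 of 276 genes in windows called lower were lower with 33.7% called, and 117 of 132 genes in windows called higher were higher with 30.3% called. Among all 9146 genes in kept windows, 16.5% were called lower and 15% higher in E3, and 10.2% and 8.73% in E5. These shares depend on the fit, since the 2878 and 1735 genes called in E3 and E5 were 4580 and 4260 without E3 replicate 3, and 2066 and 4652 when each clone was fitted with WT alone. Of the 50 genes named by abundance in the runs, counting a gene once for each run that named it, 38 lay in the direction of their run, 17 were called in it, and 1, Rars1, was called in the other.

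The edges of the regional changes were looked for by placing 1 division on each chromosome, at the gene that gave the best fit of 2 medians with at least 30 genes on each side. The positions were chosen on these values and describe them without a test. The largest step against WT was on chromosome 6 in E5, between Spr (start 85107158) and Sfxn5 (start 85190031). Before it, 226 genes had a median log2 ratio to WT of -0.32 and 83.6% were lower, and after it 248 genes had a median of 0.15 and 25.8% were lower. By library, the side before it scored 0.20, 0.16 and 0.16 in WT and -0.11, -0.11 and -0.09 in E5, and the side after it 0.01, 0.00 and 0.02 in WT and 0.17, 0.16 and 0.15 in E5. The 2 sides thus moved in opposite directions in every E5 library. In E3 both sides lay below WT, at -0.04, -0.07 and -0.07 before and -0.10, -0.13 and -0.17 after. On this chromosome E3 against WT divided elsewhere, between Clstn3 and C1rl at 124 Mb, with medians of -0.19 and -0.04.

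A second division in E5 lay near the start of chromosome 4, between Mms22l (start 24496451) and Ndufaf4 (start 24898083), where the median fell from 0.27 over 43 genes to -0.15 over 546. The 43 genes scored 0.19, 0.16 and 0.22 in E5 against -0.01, -0.07 and -0.09 in WT, and the windows they lie in, at 0-10, 10-20 and 20-30 Mb, had values of 0.295, 0.19 and 0.29, the first and last just under the size threshold. Chromosome 11 divided in E5 between Tom1l2 (start 60117540) and Atpaf2 (start 60291452), with medians of 0.18 before and -0.12 after, and in E3 between Mprip (start 59552131) and Flcn (start 59682234), with 0.20 and 0.01. Both are ratios to the same WT libraries, and E5 against E3 divided elsewhere, between Sco1 and Gas7, with -0.02 and -0.11. Chromosome 12 divided in E5 between Rad51b (start 79344056) and Zfp36l1 (start 80154528), at 0.28 over 187 genes and 0.06 over 165.

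In E3, chromosome 10 divided between Mier2 (start 79376079) and Shc2 (start 79454486). The 220 genes before it had a median of -0.34 with 80.9% lower, and the 260 after it a median of -0.10 with 61.5% lower. Its E3 libraries scored -0.14, -0.15 and -0.24 before and -0.11, -0.14 and -0.07 after, against 0.15, 0.15 and 0.16 before and 0.03, 0.02 and 0.02 after in WT. E5 against WT divided between Lmnb2 and Slc39a3 on this chromosome, at 80.74 Mb, with medians of -0.09 and 0.13, again as a ratio to the same WT libraries. Chromosome 17 divided between E4f1 (start 24662753) and Pgp (start 24689366), with -0.01 over 104 genes and 0.25 over 403, where E3 replicate 3 scored -0.13 before and 0.22 after against 0.05 and 0.01 before and 0.14 and 0.09 after in the others. Chromosome 19 divided between Prpf19 (start 10872595) and Ccdc86 (start 10918845), with 0.29 over 168 genes and 0.09 over 185, and E3 replicate 3 scored 0.38 on the first side against 0.14 and 0.10 in the others. On the second side it scored -0.07 against 0.11 and 0.09, so that the step was largest in that library.

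**Figure D4:**
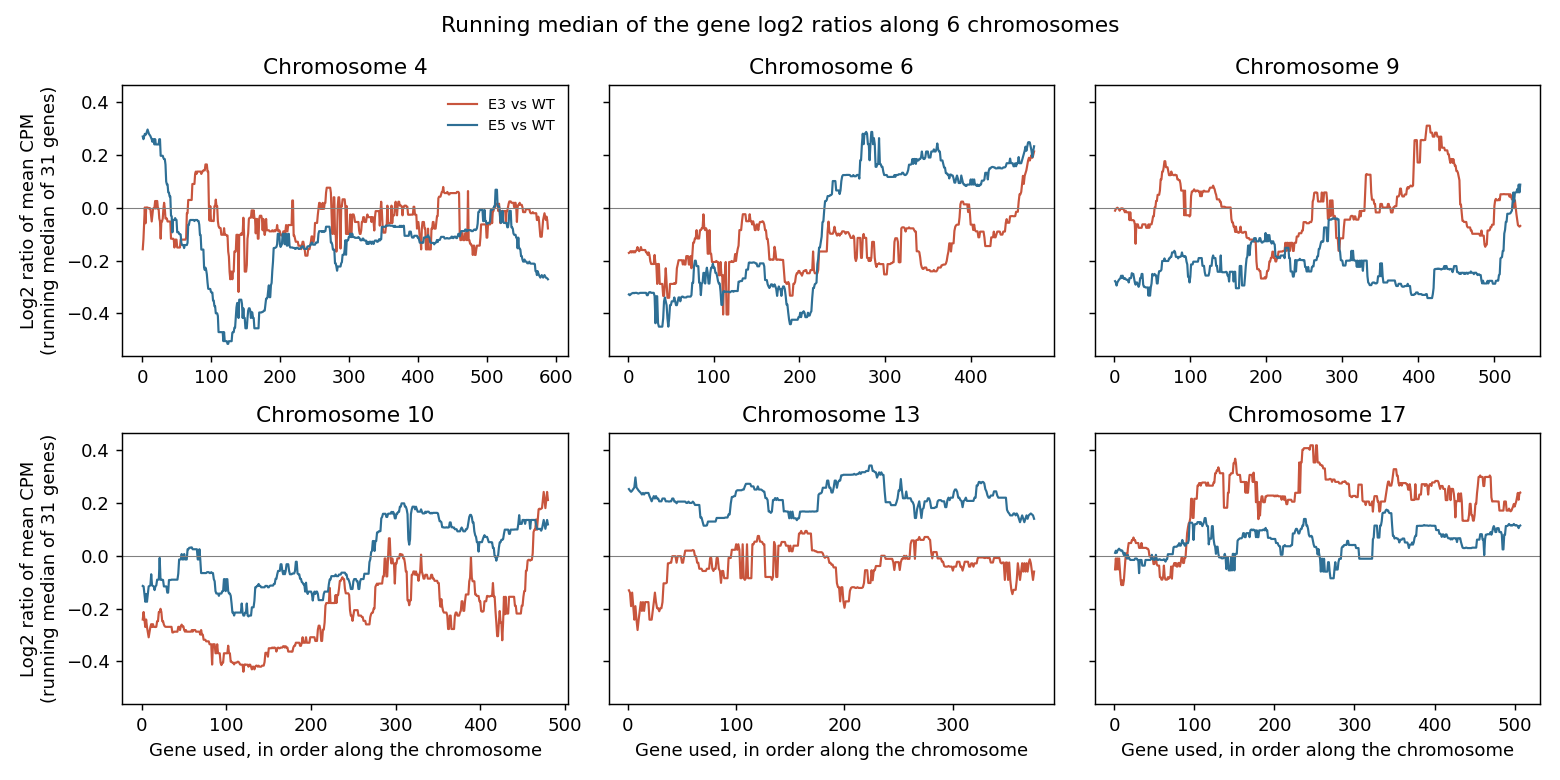
Running median over 31 genes of the log2 ratio of mean CPM, along the genes of 6 chromosomes in order, for E3 against WT and E5 against WT. On chromosome 6 the E5 line runs near -0.32 over the first 226 genes and near 0.15 over the rest, and on chromosome 10 the E3 line stays below 0 over most genes.

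Whole chromosomes leaned as well, and chromosome 9 did so in E5 without a window reaching the threshold. In E5 the median over the 534 genes of chromosome 9 was -0.22 (limma, adjusted p 2.79e-06), with all 13 windows lower and 0 called at the adjusted p and size together. By library, chromosome 9 scored 0.09, 0.08 and 0.09 in WT, 0.11, 0.10 and 0.04 in E3 and -0.13, -0.15 and -0.15 in E5, so that only E5 was apart. Chromosome 13 was the counterpart on the higher side, with a median of 0.21 over 378 genes (adjusted p 0.000144), all 12 windows higher, and scores of 0.18, 0.14 and 0.19 in E5 against -0.02, -0.04 and -0.05 in WT. Chromosome 5 had a median of -0.17 with all 13 windows lower, chromosome 14 of -0.15 with all 9 lower (in E3 also all 9, at -0.10), chromosome 4 of -0.14 and chromosome 12 of 0.19 with 10 of 11 higher.

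In E3 the chromosomes that leaned most were 10 at -0.23, 17 at 0.20, 19 and 8 at 0.19 and 6 at -0.16. Chromosome 10 scored 0.08 in each WT library and -0.13, -0.15 and -0.17 in E3. Chromosome 19 scored -0.05, -0.06 and -0.05 in WT and 0.13, 0.10 and 0.14 in E3. Leaving out E3 replicate 3 gave -0.21, 0.16, 0.16, 0.18 and -0.16 for chromosomes 10, 17, 19, 8 and 6. Over 18 alternatives the chromosome 10 median ran from -0.28 to -0.21 and the chromosome 9 median in E5 from -0.24 to -0.19. Outside the windows described here, chromosome 16 had medians of -0.11 in E3 and 0.22 in E5 over 322 genes.

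**Figure D5:**
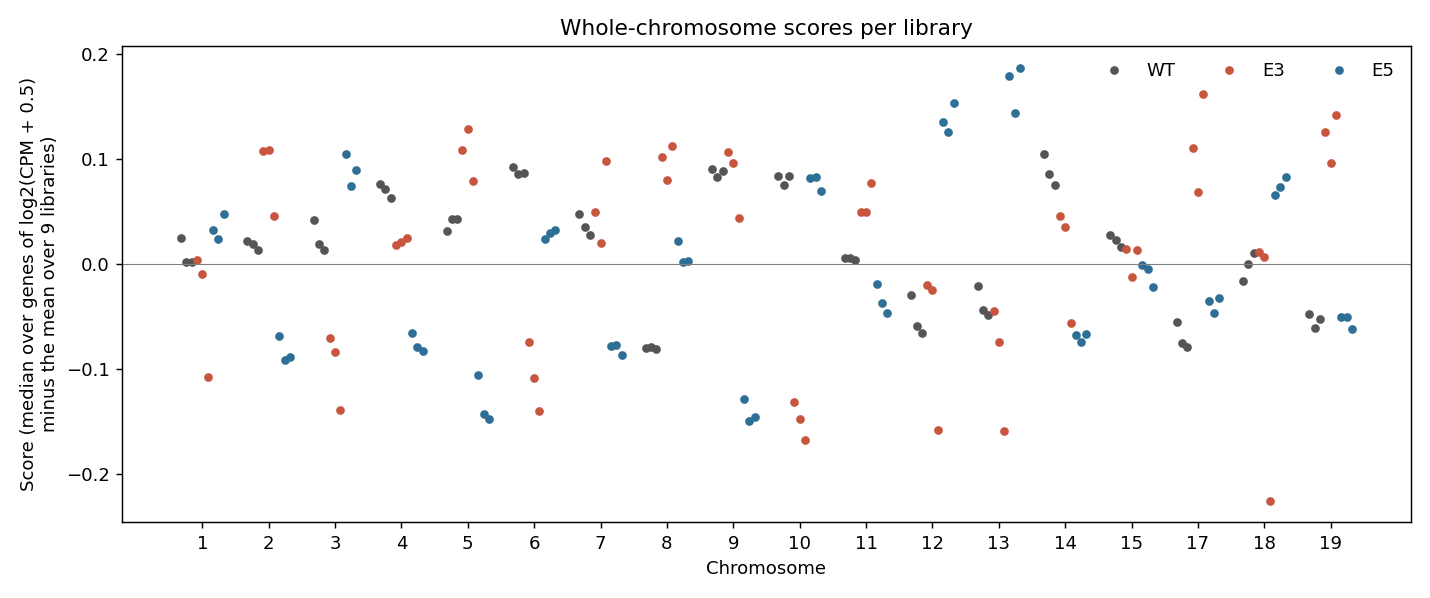
Score of each autosome except 16 in each of the 9 libraries (points, log2, the median over genes of log2(CPM + 0.5) minus the mean of the 9 libraries). Chromosome 10 is lower in the 3 E3 libraries, from -0.17 to -0.13, and chromosome 9 in the 3 E5 libraries, from -0.15 to -0.13.

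With all libraries, more windows were called between the clones than between either clone and WT. In the direct test of E5 against E3, 141 windows differed at the adjusted p and 30 were called, 20 higher in E5 (9.05% of the 221) and 10 lower (4.52%). Scaling moved this balance, to 36 higher and 4 lower with DESeq2 size factors and 33 and 5 with TMM. With a GC content and length trend subtracted, 7 were higher and 10 lower, a total of 17 that equalled the 17 called in E5 against WT, and with E3 replicate 3 also left out the totals were 16 and 17. The windows higher in E5 lay on chromosomes 3, 4, 6, 10, 12 and 13, and those lower on chromosomes 4, 5, 9 and 19. The extremes were 100-110 Mb of chromosome 6 (0.52) and 60-70 Mb of chromosome 4 (-0.49). Without E3 replicate 3, 18 windows were called, 11 lower and 7 higher, of which 15 were among the 30. In E3 against WT, 8 were called without it, of which 5 were among the 12. Of the 30 windows called between the clones, 10 were called whichever library was left out.

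At 0-20 Mb of chromosome 13 the scores were -0.01 in each WT library, -0.13, -0.12 and -0.41 in E3 and 0.18, 0.20 and 0.28 in E5. The clones lay on opposite sides of WT, and both windows of that run were called whichever library was left out. At 90-110 Mb of chromosome 9 the scores were 0.05, 0.06 and 0.05 in WT, 0.16, 0.14 and 0.22 in E3 and -0.18, -0.19 and -0.21 in E5. By value, E3 was at the WT level at 90-100 Mb (0.01) and above it at 100-110 Mb (0.17). E5 was at -0.28 and -0.27 there, and neither window was called in a clone against WT. Between the clones, the call at 90-100 Mb was lost with TMM, DESeq2 size factors or centring, and without E3 replicate 1 or 2 or E5 replicate 2. At 10-50 Mb of chromosome 3, by contrast, WT at 0.07, 0.00 and 0.02 and E3 replicates 1 and 2 at -0.08 and -0.11 were far closer to each other than to E3 replicate 3 at -0.40, and none of the 4 windows there was called without that library.

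Genes too weakly expressed to define the windows gave a second reading of them. In the 100 kept windows with at least 10 genes of a mean CPM from 0.5 to 5, the median log2 ratio of these genes had a Pearson r of 0.47 and a Spearman rho of 0.46 with the window value in E3, of 0.45 and 0.48 in E5, and of 0.62 and 0.60 between the clones. The points share libraries and scaling, so these are descriptions. The low genes also leaned as a class, with medians over all of them of 0.18 in E3 and -0.10 in E5. In the chromosome 10 run of E3, where the genes used fell, 26 low genes had a median of 0.08. Window values themselves went with GC content at an r of 0.30 in E3, -0.13 in E5 and -0.36 between the clones (221 windows).

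Cancer genes were looked up in the called windows. Of 75 listed oncogenes and tumour suppressors, 74 lie on these autosomes and 64 were expressed in a kept window, of which 17 were called in E3 (10 below WT, 7 above) and 8 in E5 (4 on each side). Among all 9146 genes in kept windows the shares called lower and higher were 16.5% and 15% in E3 and 10.2% and 8.73% in E5, and the windows called lower and higher held 167 and 227 of those genes in E3 and 276 and 132 in E5. Myc was the only 1 of the 64 in a window called in E3, and Met and Cdk6 the only ones in windows called in E5. Trp53 and Map2k1, both called lower in both clones (-0.41 and -0.35, -0.38 and -0.51), lay in windows with values within 0.17 of 0. Tert, the telomerase gene, was called lower in E3 (-0.96) and higher in E5 (1.08) in a window at -0.02 and 0.20. These genes thus changed without a called change of their neighbourhood.

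Subunit and assembly-factor genes of large complexes, whose members are scattered over the chromosomes, were compared inside and outside called windows. Picked by symbol, they comprised genes of the proteasome, the mitochondrial ribosome, respiratory complex I, initiation factor eIF3, RNA polymerase II and the CCT chaperonin. In E5, 5 such genes lay in windows called lower with a median log2 ratio of -0.23 against -0.34 for the other 271 genes of those windows, and none of the 5 was called by edgeR. In windows called lower in E3 there was 1, Ndufa5, at -0.07 against -0.38 for the other 166 genes. It lay at 18.7, 18.3 and 19.9 CPM in WT and at 13.5, 14.9 and 25.7 CPM in E3. Only E3 replicate 3 was above WT, and the value without it was not computed. In windows called higher in E3, 7 lay with a median of 0.34, against 0.31 for the other 220 genes, where 2 of the 7 were lower than WT and 3 were called higher. E3 replicate 3 was the highest E3 library for each of the 7, such as the complex I gene Ndufs8 at 61.0, 62.2 and 98.6 CPM. Ndufv1 lay at 176, 170 and 248 CPM in E3 against 166, 167 and 163 CPM in WT. The median of 0.34 thus leaned on replicate 3, and the median without it was not computed. The proteasome gene Psma6, the only one in a window called higher in E5, lay at 118, 109 and 94.7 CPM in WT and 150, 132 and 153 CPM in E5 (0.47, adjusted p 0.0584), and was not called. In windows that were not called the subunit genes had medians of 0.09 in E3 over 172 and -0.01 in E5 over 174. The other genes of those windows had medians of 0.01 in E3 over 8580 and -0.03 in E5 over 8564.

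These results rest on RNA from 1 WT line and 2 clones, with 3 libraries of each, and no DNA was measured. Which windows differ through copy number, through chromatin or through the state of the cultures was not tested, and effects of Cd47 loss cannot be told apart from differences that the founding cell of each clone already carried. The window at 60-70 Mb of chromosome 4 in E5 and those at 30-40 and 50-60 Mb of chromosome 10 in E3 held in every leave-one-out fit, while many other calls depended on the threshold, the scaling or single libraries.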

How the data were processed

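Raw gene counts, which the authors deposited as 1 table with a column for each of the 9 libraries (columns of other samples: 0), were read as integers. The submitters' notes name FastQC, Trimmomatic, STAR and GRCm39, while the counter, the annotation release and the strand setting are not given in the sources used here. Of the deposited gene identifiers that GENCODE M39 (GRCm39) also holds, 99.98% start in the same 10-Mb window. CPM used total counts, which ran from 44257404 to 55095219. Window scores were compared in limma 3.58.1 and genes in edgeR 4.0.16 (quasi-likelihood, TMM, filterByExpr with a minimum count of 10), under R 4.3.3, with Benjamini-Hochberg adjustment over all windows or all genes and calls at an adjusted p under 0.05. A pseudocount of 0.5 CPM entered the scores and none the window values.

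The members and lists were chosen with earlier results of these data known. Named runs were the 5 per clone with the largest sum of window values in size, with any window of at least 0.5. Named genes were the 5 of highest mean CPM in each (predicted gene symbols left out) and cancer genes in called windows. Other genes were picked after their values were seen. The guide was read from the study's supplementary table, and of the autosomes used here chromosome 18 was not searched for near matches. Alternatives covered scaling (TMM, DESeq2 1.42.0 size factors, centring), filters, window size and offset, pseudocount, trimmed means, size thresholds, DESeq2 as gene test, a replicate block, leaving out each library and a GC and length trend. The procedure was also run on simulated counts, with each gene drawn independently of its neighbours. They held no effect of GC content or gene density on a library, so they cannot speak to calls that rest on E3 replicate 3.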

Additional observations from a re-analysis of the deposited data

Results flagged for a closer look

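The 30 windows called in the direct test of E5 against E3 mark where the clones, each compared with the same WT libraries, differed from each other. Values are log2 ratios of E5 to E3, and the cause of each difference was not tested.

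Windows higher in E5 numbered 20. On chromosome 3 they were 10-20 Mb (0.33), 20-30 Mb (0.32), 30-40 Mb (0.36) and 40-50 Mb (0.40), and E3 against WT was -0.35, -0.18, -0.20 and -0.13 in them. On chromosome 4 they were 0-10 Mb (0.38), 10-20 Mb (0.35) and 20-30 Mb (0.35), where E5 against WT was 0.295, 0.19 and 0.29 and E3 lay between -0.04 and 0.00. On chromosome 6 they were 90-100 Mb (0.38), 100-110 Mb (0.52) and 110-120 Mb (0.33), with E3 below WT and E5 above it. On chromosome 10 they were 10-20 Mb (0.30), 20-30 Mb (0.35) and 30-40 Mb (0.31). On chromosome 12 they were 0-10 Mb (0.34) and 30-40 Mb (0.33). On chromosome 13 they were 0-10 Mb (0.42), 10-20 Mb (0.38), 40-50 Mb (0.31), 60-70 Mb (0.40) and 100-110 Mb (0.31), all with E5 above WT. E3 values there ran from -0.21 to -0.03, and at 40-50 and 60-70 Mb only E3 replicate 3, at -0.36 and -0.35, lay below the WT libraries.

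Windows lower in E5 numbered 10. On chromosome 4 they were 60-70 Mb (-0.49) and 80-90 Mb (-0.40). On chromosome 5 they were 30-40 Mb (-0.42), 40-50 Mb (-0.33) and 110-120 Mb (-0.31), and on chromosome 9 they were 30-40 Mb (-0.37), 40-50 Mb (-0.36), 90-100 Mb (-0.32) and 100-110 Mb (-0.40). E5 was below WT in each of these 7, and E3 against WT ran from 0.01 to 0.19, with chromosome 9 at 40-50 and 90-100 Mb at 0.01. On chromosome 19 it was 0-10 Mb (-0.30), where E3 was 0.30 and E5 -0.01 against WT.

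Without E3 replicate 3, 15 of the 30 were called. The 10 called whichever library was left out were chromosome 4 at 20-30, 60-70 and 80-90 Mb, chromosome 5 at 30-40 Mb, chromosome 6 at 90-100 and 100-110 Mb, chromosome 9 at 100-110 Mb and chromosome 13 at 0-10, 10-20 and 60-70 Mb.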

How the results depend on the processing

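No called window and no called named gene changed direction under any alternative run, while chromosome medians near 0 did, on chromosomes 1, 7, 9, 12, 15 and 18 in E3 and 15 and 19 in E5, and many calls depended on the size threshold. Windows of 20 Mb gave 4 called in E3, 8 in E5 and 13 for E5 against E3, and a minimum of 20 genes per window gave 9 in E5 and 19 between the clones. A size threshold of 0.2 gave 34, 59 and 75, and 0.5 gave 0, 1 and 1, the 0 by limma also at an unadjusted p, since the largest value in E3 was 0.45 in size. Subtracting a GC content and length trend, chosen after seeing the data, gave 17 for E5 against E3, and 16 when E3 replicate 3 was also left out; in E3 it gave 13, of which 8 were among the 12, and in E5 17, which included all 16. Leaving out 1 library at a time gave 8 to 15 windows in E3, 14 to 20 in E5 and 18 to 35 between the clones, the lowest of the last without E3 replicate 3. It gave 1773 to 4580, 875 to 4260 and 1784 to 4416 called genes, against 2878, 1735 and 2830 with all libraries, the highest of each without E3 replicate 3 and the lowest without WT replicate 2, WT replicate 2 and E5 replicate 2. Fits with only 2 groups called 4652 genes in E5 and 1745 between the clones. Replicate numbers do not pair samples, and with a replicate block the counts were 12, 16 and 29 windows and 2322, 1234 and 2254 genes. Scaling moved the balance of lower to higher windows, from 8 and 4 to 14 and 1 in E3 and from 11 and 5 to 5 and 9 in E5 with DESeq2 size factors, and 6 of the 16 windows were then not called in E5, at 40-50 and 50-60 Mb of chromosome 4, 0-10 Mb of chromosome 5 and 0-10, 40-50 and 70-80 Mb of chromosome 6. The cause was not tested. With 3 libraries of 1 clone per group, no window value separates CD47 loss from clonal differences.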

Other observations

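The X chromosome, which the windows leave out, was higher in E5 than in WT, with a median log2 ratio of 0.25 over 298 genes and 12 of its 13 kept windows between 0.12 and 0.34. In E3 its median was 0.00, with windows from -0.13 at 40-50 Mb to 0.25 at 130-140 Mb. The 8 kept windows of chromosome 16 ran from 0.15 to 0.25 in E5 and from -0.34 to -0.03 in E3, and the lowest in E3 was 40-50 Mb, which holds Cd47. The 7 mitochondrial genes above 5 CPM had medians of 0.04 in E3 and -0.21 in E5. These windows were not part of the limma fit and carry no test.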
